A study of Mus musculus with 12 samples.

Results

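The proteasome genes of mouse regulatory T cells (Tregs) were described across 2 Ezh2 genotypes and 2 cell fractions, as every gene whose symbol starts with Psm, 1 of the letters a to g and a digit. This rule found 49 of the 23352 gene symbols. The Tregs came from female C57BL/6 mice and were sorted out of the spleen and lymph nodes. All mice carried a YFP-Cre fusion at 1 Foxp3 allele beside a wild-type one (Foxp3YFP-Cre/Foxp3WT), so Cre was driven by the Foxp3 promoter in all 4 groups. The heterozygous mice (HET) had 1 floxed and 1 wild-type Ezh2 allele (Ezh2fl/+), the knockout mice (KO) had 2 floxed alleles (Ezh2fl/fl), and each genotype was parted by surface CD62L into CD62Lhi and CD62Llo cells. Foxp3 is X-linked, so Tregs of such females are a mosaic of cells with and without Cre, and the labels do not say whether only YFP-positive cells were kept. The labels state no age for the mice.

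Poly(A) RNA was sequenced as 3 libraries per group, and values are in FPKM, fragment numbers scaled to transcript length and library size. HET CD62Lhi replicate 3 was left out, since its label says the submitters set it aside, which left 2 libraries there and 3 in each other group. Each of the 11 libraries held between 10597 and 11024 symbols at 1 FPKM or more. Foxp3 lay between 75.9 and 96.8 in all 11. Ezh2, the floxed gene, had means of 12.6 and 18.8 in the CD62Lhi and CD62Llo cells of HET and of 10.6 and 14.6 in those of KO, a whole-gene value that checks the deletion only in part. Cd44, which activated T cells raise, was at 11.04 and 12.1 in HET CD62Lhi against 31.4 to 35.5 in HET CD62Llo, and at 10.3 to 10.5 in KO CD62Lhi. In KO CD62Llo it was at 24.8 and 29.4 in replicates 1 and 2 and at 19.5 in replicate 3, the lowest of all CD62Llo libraries.

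The proteasome is the barrel-shaped protease that degrades proteins tagged with ubiquitin. Its core particle is built of outer alpha rings that gate the entrance and inner beta rings that carry the catalytic sites, and a regulatory particle of ATPases and non-ATPase subunits binds ubiquitin chains, unfolds the protein and feeds it in. Lymphocytes can replace the constitutive catalytic subunits by the immunoproteasome forms Psmb8, Psmb9 and Psmb10, which interferon-gamma induces and which change the peptides offered on MHC class I.

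The members were parted by role. They comprised 7 alpha ring genes and a testis form (Psma8), 4 structural beta ring genes, 3 constitutive catalytic genes (Psmb5, Psmb6, Psmb7), the 3 immunoproteasome genes and a thymus form (Psmb11). The regulatory particle gave 6 ATPases and 11 non-ATPase subunits. There were also 3 assembly chaperones of the regulatory particle, 4 of the core particle, 4 activators and 1 inhibitor. Psmc3ip was matched by its name only, since it encodes a meiotic recombination protein that binds an ATPase subunit. Of the 49 members, 48 reached 1 FPKM in 2 or more libraries and were tested; Psma8 had a mean of 0.0166 and was not.

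The promoter windows of 5 of the 6 catalytic genes, all but Psmb7, are shown because each immunoproteasome gene is compared below with the constitutive gene whose site it takes. They are RefSeq sequences of GRCm38.p6, the assembly of the mm10 build, from 250 bases before to 50 bases after the start site on the gene's own strand. Capitals mark a match to 1 of 4 motifs searched on both strands: GAAA, any 2 bases and GAAA (interferon response core), TTCNNNGAA (STAT core), TGACNNNGC (antioxidant response core, the kind of site bound by Nrf1) and CCAAT, where N is any base. Psmb8 lies at chr17:34197945-34198244 on the + strand, with a STAT core, a pattern that matches on both strands, starting 97 bases before the start site. Psmb9 lies at chr17:34187281-34187580 on the - strand, with CCAAT on the opposite strand starting 8 bases before the start site. Psmb10 lies at chr8:105938343-105938642 on the - strand and held none of the 4 motifs. Psmb5 lies at chr14:54617946-54618245 on the - strand and Psmb6 at chr11:70525107-70525406 on the + strand, each with an antioxidant response core, starting 47 and 9 bases before the start site.
Psmb8: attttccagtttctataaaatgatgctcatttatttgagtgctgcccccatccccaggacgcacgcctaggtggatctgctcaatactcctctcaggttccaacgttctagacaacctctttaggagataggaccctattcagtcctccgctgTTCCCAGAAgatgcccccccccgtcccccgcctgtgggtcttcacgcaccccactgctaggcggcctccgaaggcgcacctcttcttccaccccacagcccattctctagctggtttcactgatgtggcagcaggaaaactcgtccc
Psmb9: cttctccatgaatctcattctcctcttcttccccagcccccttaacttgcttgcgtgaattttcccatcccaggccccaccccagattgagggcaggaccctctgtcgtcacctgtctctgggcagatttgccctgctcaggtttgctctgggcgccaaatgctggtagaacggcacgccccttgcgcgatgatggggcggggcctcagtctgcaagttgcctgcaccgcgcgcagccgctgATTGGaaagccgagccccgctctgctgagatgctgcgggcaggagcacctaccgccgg
Psmb10: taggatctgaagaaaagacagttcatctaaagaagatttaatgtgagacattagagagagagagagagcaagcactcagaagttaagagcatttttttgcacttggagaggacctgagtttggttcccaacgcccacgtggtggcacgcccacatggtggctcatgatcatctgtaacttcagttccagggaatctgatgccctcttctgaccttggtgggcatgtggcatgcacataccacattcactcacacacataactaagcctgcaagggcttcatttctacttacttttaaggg
Psmb5: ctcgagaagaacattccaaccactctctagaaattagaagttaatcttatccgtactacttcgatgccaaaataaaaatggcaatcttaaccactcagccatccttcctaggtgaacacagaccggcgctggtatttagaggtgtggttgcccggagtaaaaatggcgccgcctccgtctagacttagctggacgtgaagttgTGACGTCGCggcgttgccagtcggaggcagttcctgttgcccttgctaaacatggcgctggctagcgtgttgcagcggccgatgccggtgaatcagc
Psmb6: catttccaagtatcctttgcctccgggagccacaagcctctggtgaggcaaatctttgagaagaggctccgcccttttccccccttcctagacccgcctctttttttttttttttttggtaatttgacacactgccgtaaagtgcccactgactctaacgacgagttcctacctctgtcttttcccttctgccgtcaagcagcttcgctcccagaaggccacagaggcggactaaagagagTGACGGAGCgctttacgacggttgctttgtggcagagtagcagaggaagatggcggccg

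Windows were found for 41 of the 49 members, as 44 of the 32851 windows in the RefSeq table. The interferon response core was found in 5 of the 41 members (12.2%, against 3.44% of all windows), namely Psmb3, Psmd4, Psmd9, Psme1 and Psmg4. The STAT core was found in 3 (Psmb8, Psmd2 and Psmg1; 7.32%, against 8.3%), the antioxidant response core in 6 (14.6%, against 12.4%) and CCAAT in 15 (36.6%, against 37.4%). These member shares are per gene and the others per window, where the members had 5, 3, 6 and 15 of their 44 windows matched. Such matches describe the letters and not binding. The member windows had a median of 19 CpG dinucleotides, against 7 in all windows. Psmb9 and the peptide transporter gene Tap1 are transcribed away from each other, with start sites 226 bases apart, and the Psmb8 start site lies 10865 bases from that of Psmb9.

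Proteasome genes were expressed at high and even levels in all 4 groups. The activator genes Psme1 and Psme2, which encode the interferon-inducible cap that opens the core, had the highest means over the 11 libraries, 391 and 371 FPKM. The immunoproteasome genes Psmb8 (316) and Psmb9 (215) followed, and Psmb10 was at 118. The constitutive catalytic genes were lower, at 97.3 for Psmb5, 82.9 for Psmb7 and 82.5 for Psmb6. The alpha ring genes ranged from 56.9 (Psma5) to 144 (Psma2) and the structural beta ring genes from 93.0 (Psmb2) to 169 (Psmb3).

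By role median, the regulatory particle (61.7 for ATPases, 43.6 for non-ATPases) was lower than the alpha ring (94.3) and structural beta ring (157). The ranges overlapped. Its ATPase genes ranged from 40.7 (Psmc6) to 82.6 (Psmc3) and its non-ATPase genes from 25.1 (Psmd1, the scaffold subunit) to 98.8 (Psmd4, a ubiquitin receptor). Assembly chaperones had still lower medians, 18.8 for the regulatory particle and 25.8 for the core. They ranged from 7.61 (Psmd9) to 22.0 (Psmd5) and from 17.7 (Psmg3) to 45.0 (Psmg4). Psme3, the nuclear activator, was at 50.8, Psme4, the large activator known from sperm and DNA repair, at 12.01, and Psmf1, the inhibitor that binds the core, at 10.9. Psmb11, the catalytic form of thymic cortical epithelium, was at 0.794 to 1.05 in the 11 libraries, and Psmc3ip had a mean of 3.36.

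**Figure D1:**
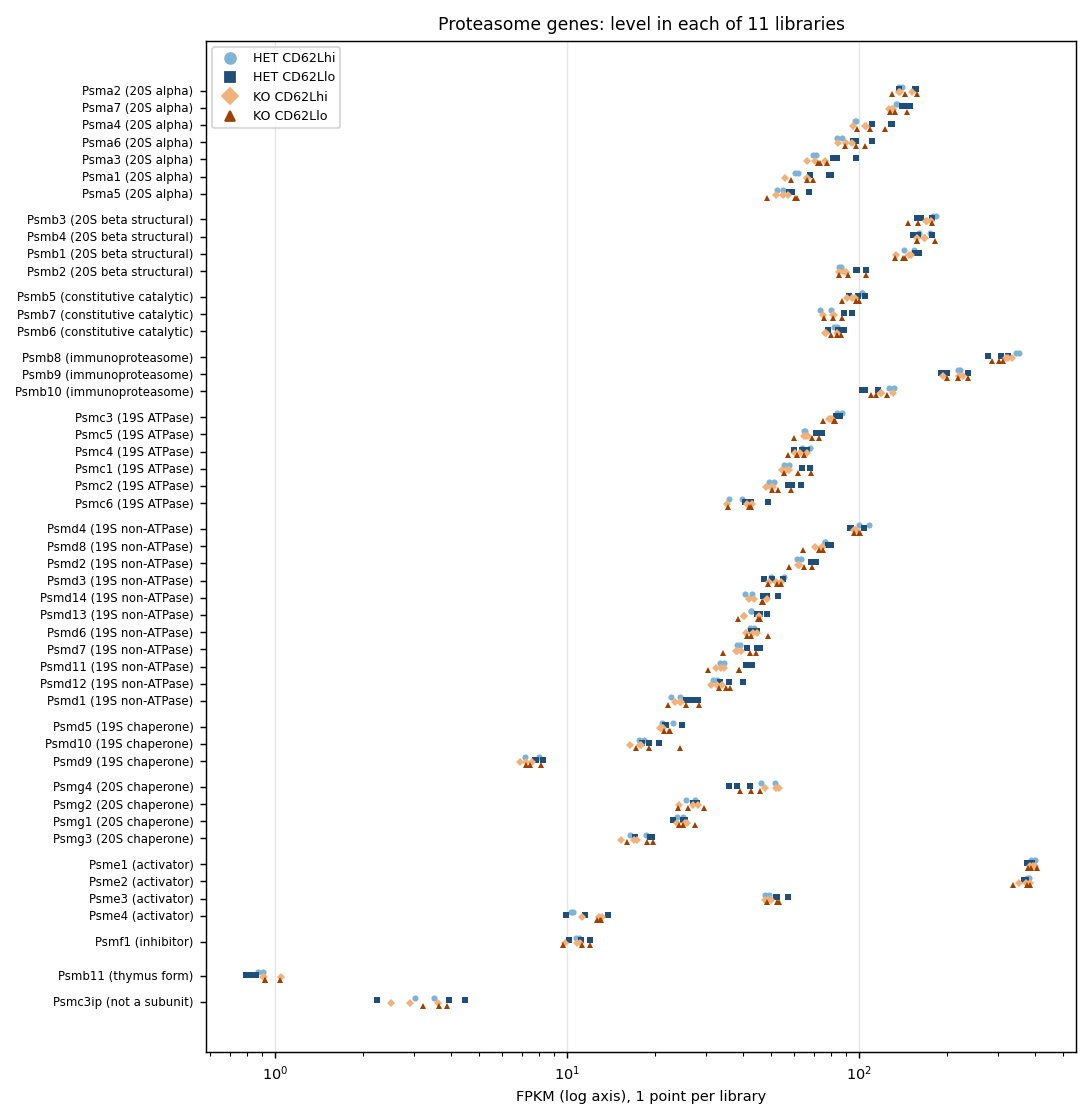
FPKM (log axis) of each tested proteasome gene in each of the 11 libraries, with 1 point per library, coloured and shaped by group, and genes ordered by role and by mean (20S marks the core particle and 19S the regulatory particle). Psme1, Psme2, Psmb8 and Psmb9 lie above 190, and the points of a gene lie close together, with 47 of 48 genes under 2-fold between their highest and lowest library.

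The members varied less between libraries than most genes. The SD of log2(FPKM + 1) over the 11 libraries had a median of 0.0974 over the 48 tested members and 0.141 over the 11431 genes tested. The highest library exceeded the lowest by less than 2-fold in 47 members (97.9%), the exception being Psmc3ip, and in 77.9% of all genes tested. The median ratio of highest to lowest was 1.25 for the members and 1.41 for all genes. The members are also expressed above most genes, and levels and spread were not matched here. Psme1 had the smallest ratio, 1.078, and Psmd10, the chaperone also called gankyrin, the largest among the proteasome parts, 1.48.

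At each catalytic site the immunoproteasome transcript was the more abundant in every library. At the beta5 site, of chymotrypsin-like activity, Psmb8 made up 77.1% and 77.6% of the summed FPKM of Psmb8 and Psmb5 in HET CD62Lhi and 75.5%, 76.8% and 73.6% in HET CD62Llo. In the KO cells they were 77.5%, 77.97% and 77.1% in the CD62Lhi fraction and 76.5%, 75.7% and 75.5% in the CD62Llo one. In both genotypes the CD62Llo shares lay below all CD62Lhi shares, by a gap narrower than the range within the CD62Llo group. At the beta1 site, of caspase-like activity, the share of Psmb9 against Psmb6 was 69.8% to 74.1% over all 11 libraries, and the groups overlapped in both genotypes.

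The beta2 site, of trypsin-like activity, showed the widest gap between the HET fractions. Psmb10 made up 64.1% and 61.2% of the summed FPKM of Psmb10 and Psmb7 in HET CD62Lhi, against 56.8%, 54.1% and 52.0% in HET CD62Llo. The lowest CD62Lhi library was above the highest CD62Llo library. In KO CD62Lhi the shares were 63.6%, 59.2% and 59.1%, and in KO CD62Llo they were 59.1%, 58.6% and 58.5%, so that the KO fractions overlapped at their edges. As a ratio, Psmb10 stood to Psmb7 at 1.68 ± 0.146 (SD, n = 2) and 1.19 ± 0.118 (n = 3) in the HET fractions and at 1.55 ± 0.171 and 1.42 ± 0.0214 (n = 3 each) in the KO fractions. Shares and ratios of 2 genes are not changed by rescaling a library, and no test was run on them.

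**Figure D2:**
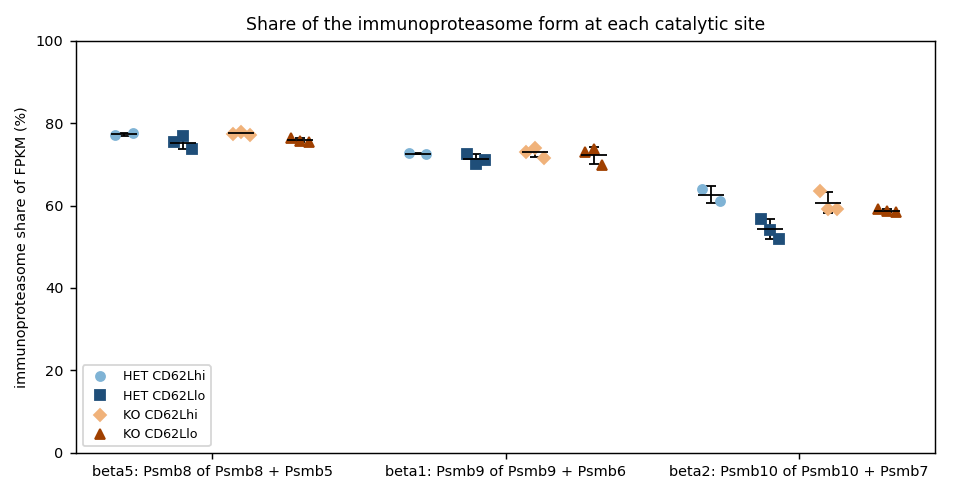
Immunoproteasome transcript as a percentage of the summed FPKM of the 2 forms at each catalytic site, with 1 point per library and lines for the group mean and SD. HET CD62Llo lies lowest at the beta2 site (52.0% to 56.8%, against 61.2% and 64.1% in HET CD62Lhi), while at the beta1 site all groups overlap.

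The comparison of the HET fractions asks which genes differ between CD62Llo cells, largely activated Tregs, and CD62Lhi cells, largely resting ones. In CD62Llo, 3 core and 3 regulatory particle genes were higher and Psmb8, Psmb10 and the assembly chaperone Psmg4 were lower, all by small amounts. After median centring the 6 higher calls were lost and the 3 lower ones kept, after quantile normalization 4 higher (Psma3, Psma4, Psmb7 and Psmc2) and all 3 lower ones were kept, and with the replicate number as a block 5 higher and 1 lower (Psmg4) were kept. Of the 48 tested members 9 passed, 18.8%, against a background of 27.7% of all genes tested (limma on log2(FPKM + 1), Benjamini-Hochberg over 11431 genes, threshold 0.05). Of the 9, 6 were higher (background 18.8%) and 3 lower (background 8.88%). An unadjusted p under 0.05 was reached by 16 of the 48 members and by 4495 of the 11431 genes tested. The share of members called was thus below the background, and the median log2 change was 0.09, against 0.07 for all genes tested. Nothing in the labels ties the libraries of a group to different mice, and a p may therefore measure technical spread only.

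Among the higher genes, Psma4, an alpha ring subunit, had FPKM of 96.9 and 97.8 in HET CD62Lhi and 111, 129 and 129 in HET CD62Llo (log2 change 0.33, SE 0.10, limma adjusted p = 0.0312). Psma3, another alpha ring subunit, was at 71.3 and 69.5 against 81.4, 84.0 and 97.6 (log2 0.31, SE 0.08, adjusted p = 0.0231). Psmd11, a non-ATPase subunit that helps hold the particles together, was at 34.4 and 33.5 against 42.0, 40.9 and 43.1 (log2 0.30, SE 0.10, adjusted p = 0.0428). In these 3 genes every CD62Llo library was above both CD62Lhi libraries.

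Psmc2, an ATPase subunit, was at 49.4 and 51.3 in HET CD62Lhi and at 57.0, 63.2 and 59.1 in HET CD62Llo (log2 0.24, SE 0.07, limma adjusted p = 0.0279). Psmd14, the deubiquitinase of the regulatory particle, had means of 41.9 ± 1.56 (n = 2) and 49.4 ± 3.25 (n = 3), with log2 0.23 and adjusted p = 0.0394. Psmb7, the constitutive beta2 subunit, was at 73.8 and 80.3 against 88.6, 88.9 and 94.7 (log2 0.23, SE 0.07, adjusted p = 0.0397). None of these 3 overlapped between the fractions either.

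Of the lower genes, Psmg4, a chaperone of alpha ring assembly, was at 51.7 and 46.1 in HET CD62Lhi and at 42.3, 38.1 and 36.0 in HET CD62Llo (log2 change -0.33, SE 0.09, limma adjusted p = 0.0256). Psmb10 was at 132 and 127 against 117, 105 and 103 (log2 -0.26, SE 0.08, adjusted p = 0.032). Psmb8 was at 344 and 354 against 324, 306 and 277 (log2 -0.21, SE 0.07, adjusted p = 0.0495). All CD62Llo libraries of these 3 genes were below both CD62Lhi libraries. Its adjusted p ranged from 0.00449 to 0.21 over 20 alternatives, and the call was kept in 4 of them. Psmb9 was at 219 and 223 against 237, 200 and 192, and its groups overlapped (log2 -0.08, 95% interval -0.32 to 0.16, adjusted p = 0.609).

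**Figure D3:**
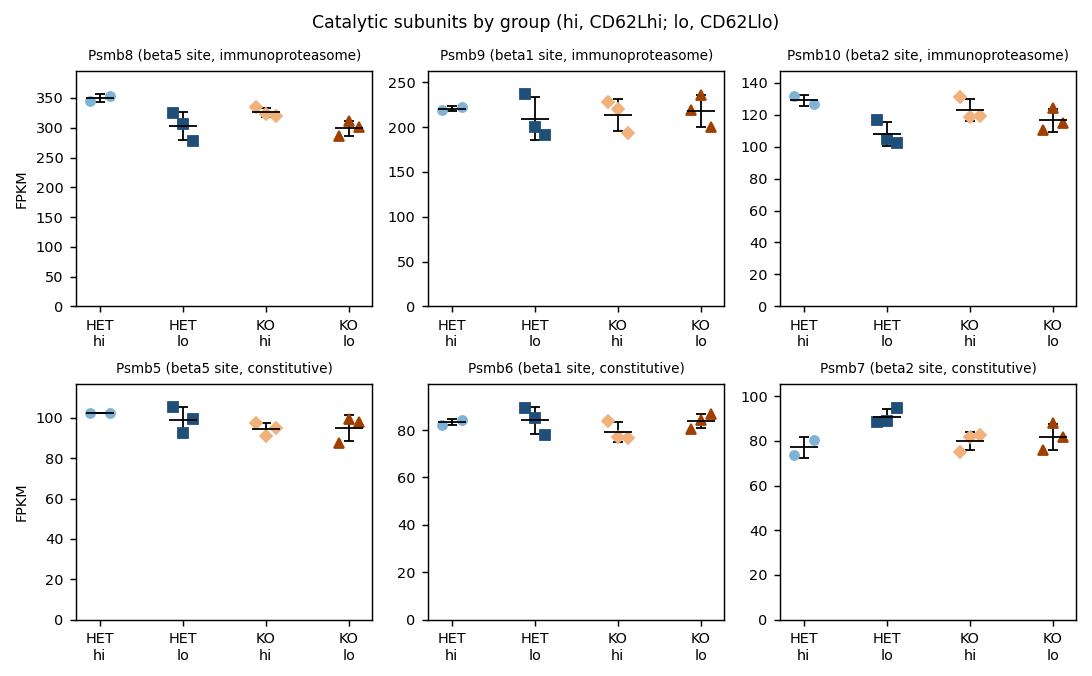
FPKM of the 6 catalytic subunit genes by group, with 1 point per library and lines for the group mean and SD (n = 2 for HET CD62Lhi, 3 for the others). Psmb8 and Psmb10 lie lower and Psmb7 lies higher in HET CD62Llo than in HET CD62Lhi, while Psmb9, Psmb5 and Psmb6 overlap.

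The other catalytic and accessory genes did not pass. Psmb5 was at 102 and 102 in HET CD62Lhi and at 105, 92.6 and 99.3 in HET CD62Llo (95% interval of the log2 change -0.21 to 0.11). Psmb6 was at 82.3 and 84.1 against 89.2, 85.0 and 78.1 (interval -0.14 to 0.16). Both overlapped between the fractions.

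The activators and the inhibitor also stayed short of the threshold between the HET fractions. Psme1 was at 389 and 402 in HET CD62Lhi and at 384, 392 and 377 in HET CD62Llo (interval -0.15 to 0.07), and Psme2 at 377 and 384 against 368, 371 and 373 (interval -0.18 to 0.10). Psme3 was at 49.4 and 47.7 against 52.0, 52.5 and 57.1 (log2 0.15, limma adjusted p = 0.103). Psme4 was at 10.3 and 10.5 against 9.90, 11.52 and 13.8, and Psmf1 at 10.96 and 10.7 against 11.97, 11.2 and 10.2. Psme2 and Psme3 did not overlap between the fractions, and Psme1, Psme4 and Psmf1 did.

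By role, all 7 alpha ring genes had a log2 change above 0 between the HET fractions (median 0.23, range 0.11 to 0.33, 2 called), also after quantile normalization and after median centring. The 6 ATPase genes had a median of 0.18 with 4 above 0 and 1 called, and the 11 non-ATPase genes a median of 0.16 with 9 above 0 and 2 called. After median centring these medians were 0.08 and 0.05, with 4 and 7 above 0. Of all genes tested, 18.8% were called higher and 8.88% lower in this comparison. The 3 immunoproteasome genes all lay below 0 (median -0.21, 2 called), and stayed there after both rescalings. The structural beta ring genes were split, from -0.13 (Psmb3) to 0.22 (Psmb2), with 0 called. The 3 chaperones of the regulatory particle had changes of 0.04 to 0.09, with 0 called, and all 3 lay below 0 after median centring.

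Values of the HET fractions did not overlap in 28 of the 48 members, 22 higher and 6 lower in CD62Llo, where 53.9% of all genes tested did not overlap (36.1% higher, 17.9% lower). The 95% intervals of the log2 change lay within 1 of 0 for all 48 members and within 0.5 of 0 for 43. Median centring shifted the median of all genes by -0.103 and the median of the members to -0.01. It called 6 members, all lower in CD62Llo (Psmb3, Psmb8, Psmb10, Psmd4, Psme1 and Psmg4). Over all genes tested it called 1522 higher and 1862 lower. Without HET CD62Llo replicate 2 or 3, 1 member passed in each fit, and 5 did without KO CD62Lhi replicate 3. Without KO CD62Llo replicate 1 the count was 13, and a fit of the 2 groups alone gave 2. The share called over all genes moved as well. It was 23% and 23.6% without HET CD62Llo replicate 2 or 3 and 26.9% without KO CD62Lhi replicate 3. Without KO CD62Llo replicate 1 it was 27.8%, and in the fit of the 2 groups 21.3%. The fits without a HET CD62Lhi replicate leave 1 library in that group, so no count is given for them.

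**Figure D4:**
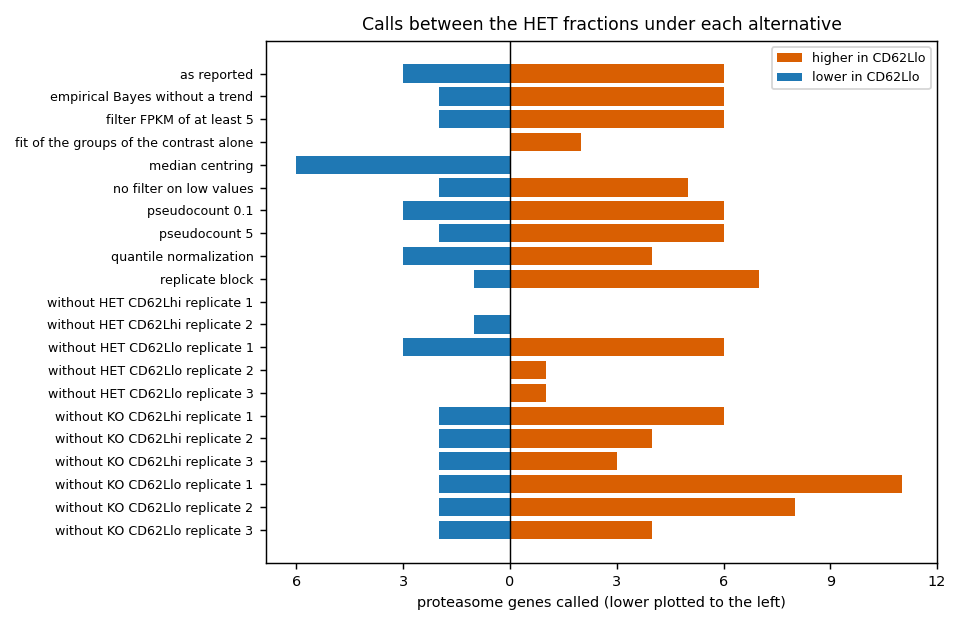
Number of proteasome genes called between the HET fractions as reported and under each of the 20 alternatives, with genes higher in CD62Llo drawn to the right and lower ones to the left. The count as reported was 6 higher and 3 lower, and median centring left 0 higher and 6 lower. With 1 library left out and more than 1 kept per group, the count ranged from 1 to 13 (23% to 29.2% of all genes).

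Between the KO fractions no member passed by limma with Benjamini-Hochberg adjustment over 11431 genes, against a background of 16.2% (11.9% higher, 4.26% lower). At an unadjusted p under 0.05 were 3345 of all genes tested and 1 member. The member was Psmg4, at 47.6, 53.1 and 51.9 in KO CD62Lhi and at 39.1, 42.8 and 46.0 in KO CD62Llo. Its log2 change was -0.25 (SE 0.08, adjusted p = 0.07), and every KO CD62Llo library was below every KO CD62Lhi library. It passed after median centring (adjusted p = 0.0182), after quantile normalization (0.0327) and without KO CD62Llo replicate 3 (0.0458). Its adjusted p lay between 0.0182 and 0.196 over all 20 alternatives.

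Psmb8 was at 334, 323 and 320 in KO CD62Lhi and at 285, 311 and 302 in KO CD62Llo. These groups did not overlap, yet the log2 change of -0.12 (95% interval -0.26 to 0.02) gave a limma adjusted p of 0.228, or 0.033 after median centring (range over the alternatives 0.033 to 0.482). Psmb10 was at 131, 119 and 119 against 110, 124 and 115, with overlap (log2 -0.08, interval -0.23 to 0.07). Psmb9 was at 228, 220 and 194 against 219, 236 and 200 (interval -0.18 to 0.24). Psmb8 and Psmg4 were the lower ones of 3 members whose KO fractions did not overlap, where 34.8% of all genes tested did not (24.3% higher, 10.5% lower); Psmd5, a chaperone of the regulatory particle, was the third.

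Constitutive catalytic genes lay close in the KO fractions. Psmb5 was at 97.3, 91.2 and 94.9 in KO CD62Lhi and at 87.7, 99.7 and 98.0 in KO CD62Llo, Psmb6 at 84.0, 77.1 and 76.7 against 80.5, 84.4 and 86.6, and Psmb7 at 75.2, 81.7 and 82.4 against 76.1, 87.9 and 81.5. All 3 overlapped, with intervals of the log2 change inside -0.13 to 0.22.

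The activators Psme1 (402, 385 and 394 in KO CD62Lhi, 379, 407 and 388 in KO CD62Llo) and Psme2 (373, 354 and 385 against 338, 384 and 375) overlapped as well. So did Psme3 (47.6, 50.1 and 48.7 against 48.3, 52.5 and 53.2), Psme4 (11.3, 12.9 and 13.1 against 12.7, 12.98 and 13.1) and Psmf1 (10.8, 11.1 and 9.85 against 11.3, 11.96 and 9.67).

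The genes called between the HET fractions had smaller changes between the KO fractions. They were picked by their HET changes, and the part of that choice in this difference was not tested. Psma4 was at 95.7, 106 and 105 in KO CD62Lhi and at 98.7, 123 and 109 in KO CD62Llo (log2 0.11, SE 0.09). Psma3 was at 66.4, 76.4 and 70.7 against 72.5, 78.02 and 73.7 (log2 0.07), Psmd11 at 32.5, 33.6 and 34.5 against 30.4, 38.9 and 38.8 (log2 0.09), and Psmc2 at 48.2, 50.2 and 50.6 against 50.3, 58.3 and 52.8 (log2 0.11). Groups overlapped in all 4. The alpha ring genes had a median of 0.07 with 7 of 7 above 0, but after median centring 5 of 7 lay below 0. Over all 48 members the median was 0.04, against 0.05 for all genes tested.

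**Figure D5:**
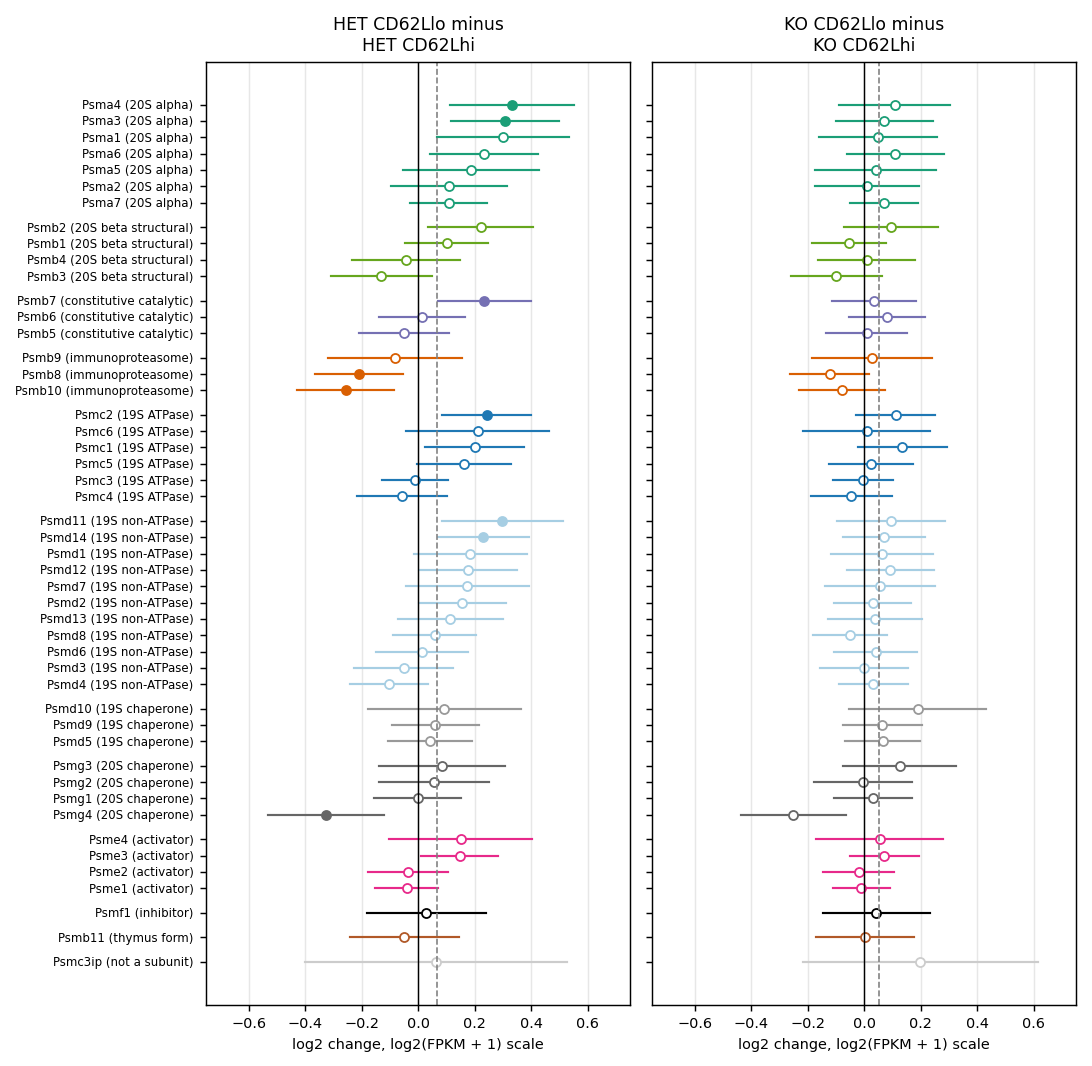
Log2 change (CD62Llo minus CD62Lhi, on the log2(FPKM + 1) scale) of each tested proteasome gene in HET and in KO, with 95% intervals; filled points passed the threshold and dashed lines mark the median of all genes tested (0.07 and 0.05). In HET 9 genes are filled, 6 to the right and 3 to the left of 0, and in KO none; after median centring the medians of the members lie at -0.01 and -0.04.

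The test of whether the fraction difference depended on genotype called no member by limma with Benjamini-Hochberg adjustment (background 0.00875%, 1 of 11431 genes). The lowest adjusted p of a member was 0.685 (limma). At an unadjusted p under 0.05 were 0 members and 868 of all genes tested. So the members called in HET and not in KO were not shown to differ between the genotypes. The largest differences of KO minus HET were -0.25 for Psma1 (95% interval -0.56 to 0.06), -0.24 for Psma3 (-0.49 to 0.02) and, the other way, 0.18 for Psmb10 (-0.05 to 0.41). The 7 alpha ring genes all lay below 0 (median -0.14) and the 3 immunoproteasome genes all above 0 (median 0.11). These values share libraries with both fraction comparisons.

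The CD62Llo fractions of the genotypes differed in Ccr7 and Klf2, genes that were higher in HET CD62Lhi than in HET CD62Llo. Their means were 128.5 and 49.2 in HET CD62Llo and 196 and 80.7 in KO CD62Llo. The part of such a difference in the comparison of the genotypes was not tested. Between the genotypes in CD62Llo cells no member passed by limma with Benjamini-Hochberg adjustment (background 4.6%, with 1.36% higher and 3.25% lower). An unadjusted p under 0.05 was reached by 7 members and by 2159 of all genes tested. Psma3 had the largest change, from the HET CD62Llo values above to the KO CD62Llo ones, with no overlap (log2 -0.22, SE 0.08, adjusted p = 0.146). Psmd11 (log2 -0.22, adjusted p = 0.193) and Psmb7 (log2 -0.15, adjusted p = 0.256) were also lower in every KO library. Values did not overlap in 7 members, 6 of them lower in KO, where 20.2% of all genes did not (6.55% higher, 13.7% lower). Psmb8 (log2 -0.01, interval -0.15 to 0.13), Psmb9 (0.06, -0.15 to 0.27) and Psmb10 (0.11, -0.05 to 0.26) overlapped.

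With the replicate number as a block, 2 members passed as lower in KO CD62Llo than in HET CD62Llo. Psma1, an alpha ring gene at 68.2, 79.0 and 80.2 in HET and at 58.7, 69.7 and 66.2 in KO, had a log2 change of -0.22 (SE 0.05, limma adjusted p = 0.0497). Psmb1, a structural beta ring gene at 156, 161 and 160 in HET and at 133, 144 and 141 in KO, had -0.19 (SE 0.04, adjusted p = 0.0287). Without the block their adjusted p were 0.235 (range over the alternatives 0.0497 to 0.532) and 0.111 (0.0287 to 0.301). Same-numbered libraries deviated together in these groups, as given with the processing, so the block applies here by correlation only. In this fit 6.6% of all genes were called.

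KO CD62Llo replicate 1 was the lowest library of its group in 40 of the 48 members, with a median deviation from the group mean of -0.09 on the log2 scale (-0.02 over all genes), and replicate 2 the highest in 37 (0.10, and 0.04 over all genes). Summed FPKM of 8 myeloid and dendritic markers were 161 and 290 in these libraries, against 36.2 in replicate 3 and 17.6 to 122 in the other 8. Lyz2 alone made up 124 and 219 of these sums and was the 1 of the 4 tested markers called between the fractions (higher in CD62Llo of both genotypes), and their part in these values was not tested. Psmb8, Psmb10 and Psma4 in replicate 3, the library with the lowest Cd44 of the CD62Llo groups, lay between the other 2. Without replicate 3, 1 member passed between the KO fractions (Psmg4, where 17.3% of all genes passed). Between the genotypes in CD62Llo 0 passed (2.48% of all genes).

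In CD62Lhi cells no member passed between KO and HET (limma with Benjamini-Hochberg adjustment, where 0% of all genes passed). At an unadjusted p under 0.05 were 0 members and 328 of all genes tested. Psme4 had the largest change, from 10.3 and 10.5 in HET to 11.3, 12.9 and 13.1 in KO (log2 0.24, 95% interval -0.01 to 0.49), with no overlap. Psmb5 and Psmb8 were lower in every KO library (log2 -0.12 and -0.10). In all, 9 members did not overlap, 2 higher and 7 lower in KO, against 22.2% of all genes (7.83% higher, 14.4% lower). The median log2 change was -0.02 and turned to 0.0001 after median centring.

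The authors' deposited table of 1 pooled FPKM per group gave the same direction for the 9 genes called between the HET fractions. It covers the same groups, so the shared direction is no independent check. In the authors' deposited table Psmb8 was at 419 and 343 in HET CD62Lhi and CD62Llo and at 401 and 350 in the KO fractions. Its values for 48 of the members stood at a median of 1.22 times the means of the libraries, so both sets are on different scales and were not mixed.

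Genes that work with the proteasome moved in both directions between the HET fractions. Of 18 tested partners, 5 rose and 2 fell, where 18.8% of all genes were called higher and 8.88% lower. They included Pomp, the maturation factor of the core, from 137 ± 3.85 (n = 2) to 160 ± 9.67 (n = 3; log2 0.22, limma adjusted p = 0.0457), and Usp14, a proteasome-bound deubiquitinase, from 6.63 ± 0.06 to 8.96 ± 1.003 (log2 0.38, adjusted p = 0.00945). The call of Pomp was kept in 6 of 20 alternatives, and neither median centring nor the replicate block kept it (adjusted p up to 0.214). That of Usp14 was lost after quantile normalization and in the fit of the 2 groups alone. Zfand5, a proteasome-binding protein (log2 0.43), and Rad23b, a shuttle for ubiquitinated proteins (log2 0.35), also rose. The receptor Adrm1 and the deubiquitinase Uchl5 did not pass (log2 -0.14 and 0.12). Between the KO fractions 1 of 18 passed (backgrounds 11.9% higher, 4.26% lower), Txnl1, a thioredoxin-like partner (log2 0.19), and its call was kept in 7 of 20 alternatives and lost under both rescalings and the replicate block (adjusted p up to 0.199).

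Nrf1, encoded by Nfe2l1, is the factor that raises proteasome genes when protease capacity falls short. Nfe2l1 itself was at 24.2 and 23.1 in HET CD62Lhi and at 29.3, 27.5 and 28.0 in HET CD62Llo, just short of the threshold (log2 0.25, limma adjusted p = 0.0518), and had log2 0.22 between the KO fractions (adjusted p = 0.0808). Of 8 genes listed for Nrf1, its processing and related factors, 3 rose and 2 fell in HET (backgrounds 18.8% and 8.88%). Mafg, a small Maf partner, rose from 3.39 ± 0.48 to 8.82 ± 0.80 (log2 1.16), and Vcp, the ATPase that extracts Nrf1 from the endoplasmic reticulum, from 96.9 ± 2.28 to 124 ± 3.55 (log2 0.36). Ngly1, the enzyme that removes its glycans, rose too (log2 0.29), but not after either rescaling. Mafk and Nfe2l2, the gene of a related factor, fell (log2 -0.36 and -0.33). Mafg (log2 0.99) and Vcp (0.20) were the 2 that rose in KO, with 0 falling (backgrounds 11.9% and 4.26%), and Vcp did not pass there after median centring.

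Among genes of ubiquitin and its activation, Uba1, the main activating enzyme, rose between the HET fractions (log2 0.22), though not after median centring, and Rps27a, which encodes ubiquitin fused to a ribosomal protein, fell (log2 -0.41). Rps27a fell in KO as well (log2 -0.27), but neither fall passed after quantile normalization. The COP9 signalosome, a complex related to the lid of the regulatory particle, had 4 of 9 genes higher in HET CD62Llo, led by Cops2 (log2 0.40), with 0 lower (backgrounds 18.8% and 8.88%), and 1 of 9 in KO CD62Llo (Cops6, log2 0.24, background 11.9%). Median centring kept none of these 5 calls, and that of Cops6 in KO was kept in 6 of 20 alternatives (adjusted p up to 0.149).

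Among 14 genes of MHC class I presentation, 2 rose between the HET fractions and 0 fell, where 18.8% of all genes were called higher and 8.88% lower. These were the chaperone Calr, from 188 ± 3.62 to 246 ± 6.49 (log2 0.38), and Pdia3 of the peptide-loading complex (log2 0.36); Calr also rose in KO (log2 0.23), except after median centring. The peptide transporter genes Tap1 (141 ± 6.38 and 139 ± 11.53) and Tap2 (147 ± 3.20 and 135 ± 15.7), the light chain gene B2m (2843 ± 52.0 and 3198 ± 53.4) and the activator gene Nlrc5 (59.5 ± 0.18 and 63.6 ± 0.44) did not pass in HET, nor did any of the 4 in KO.

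Of 12 genes of the interferon signal that induces the immunoproteasome, 5 fell and 2 rose between the HET fractions (backgrounds 8.88% and 18.8%). Ifngr2, a chain of the interferon-gamma receptor, was at 31.6 and 29.1 in HET CD62Lhi and at 16.6, 15.9 and 14.2 in HET CD62Llo (log2 -0.92, SE 0.08, limma adjusted p = 5.19e-05). Socs1, an inhibitor of the signal (log2 -0.58), and Irf7 (log2 -0.47) fell, while the kinase gene Jak2 (log2 0.63) and Irf8 (log2 0.57) rose. Irf8 did not pass after quantile normalization or with the replicate block. Irf1, a factor known to induce immunoproteasome genes, did not pass (log2 -0.18). Between the KO fractions 4 fell and 2 rose (backgrounds 4.26% and 11.9%), with Ifngr2 at 28.8, 27.1 and 24.9 against 20.4, 19.99 and 21.0 (log2 -0.38, SE 0.07). Ifngr2 was also the 1 gene of the proteasome-related lists called between the genotypes in CD62Llo, higher in KO (log2 0.38, SE 0.07, adjusted p = 0.0201). That call was lost in 5 of 20 alternatives (adjusted p up to 0.0812), namely the fit of the 2 groups alone and those without HET CD62Llo replicate 2 or 3 or KO CD62Llo replicate 1 or 3.

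Markers of other cells differed between the fractions beside these values. All 6 B cell markers were above 0 in every library. Their summed FPKM were 76.6 to 92.5 in HET CD62Lhi and 19.5 to 32.8 in HET CD62Llo. In KO they were 73.9 to 127 in CD62Lhi and 24.8 to 61.3 in CD62Llo. Of the 6, 4 fell in each genotype, where 8.88% of all genes in HET and 4.26% in KO were called lower. The 4 MHC class II genes, which antigen presenting cells express and which all fell in both genotypes, summed to 328 to 413, 75.8 to 134, 310 to 484 and 113 to 203 in the same order. Sums of 4 CD8 T and NK cell markers were 38.5 to 43.1, 14.7 to 17.0, 29.1 to 35.7 and 12.3 to 18.9. In that list Cd8a and Cd8b1 fell in both genotypes, while the NK cell marker Klrb1c rose, from a mean of 0.355 to 2.95 in HET and from 0.286 to 1.33 in KO. Sums of the 8 myeloid markers, mostly Lyz2 in CD62Llo, were 17.6 to 39.1, 54.2 to 122, 18.0 to 27 and 36.2 to 290. B cells and antigen presenting cells also express immunoproteasome genes, and the part of these cells in the lower Psmb8 and Psmb10 of CD62Llo was not tested. In such bulk samples fewer cells of a type and less RNA per cell cannot be told apart.

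Some values rest on reads that could be shared. Exons of 12 members overlap exons of another gene in the GENCODE annotation of mm10, among them Psma4, Psmb7, Psmb8, Psmb9, Psmc3 and Psme1, and whether the counting used strand is not stated in the labels. Exons of Psmb9 overlap those of Tap1, whose FPKM were 129 to 152 over the 11 libraries.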

How the data were processed

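Poly(A) libraries were made from TRIzol-extracted RNA, per the labels' protocols. The authors deposited FPKM per gene and library, and the submitters' processing notes name CASAVA 1.8.2, FastQC, TopHat (version not given in the sources used here), Cufflinks 2.1.1 and the mm10 build. FPKM keep no read counts, so the depth behind a value is unknown.

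FPKM of repeated symbols were summed, giving 23352 symbols. Genes at 1 FPKM or more in at least 2 of 11 libraries (11431) were fitted on log2(FPKM + 1) by limma 3.58.1 in R 4.3.3, with 4 group means, a trend on mean expression, 5 comparisons and Benjamini-Hochberg adjustment at 0.05 over all genes. Fold changes are on that scale and understate low genes. The fit was tested on simulated data.

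Values per library are given for the catalytic, activator and inhibitor genes and for the 5 largest called changes per direction. From the related lists, a fixed set and up to 3 called genes per list are named, without some genes that are not reported here. Psma1, Psmb1 and Psmg4 in KO, Psmd10, Psmd5 and the ranges by role were picked after their values were seen. The members and lists were chosen with earlier results of these data known. Same-numbered libraries deviated together in HET and KO CD62Llo (r = 0.165, 0.153 and 0.148 across genes), so a fit with the replicate number as a block is given there beside the one without. In the other comparisons the lowest same-numbered r was lower. It was 0.073 between the HET fractions, 0.068 between the KO fractions and -0.032 between the genotypes in CD62Lhi. Alternatives covered the pseudocount, the filter, 2 rescalings, the trend, the libraries fitted, the block and each library left out.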

Additional observations from a re-analysis of the deposited data

Results flagged for a closer look

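HET CD62Lhi replicate 3, which no comparison used, held values above 0 for 3 of the 49 proteasome genes, namely Psma1 (709.2 FPKM), Psma3 (612.9) and Psma6 (940.0). It drew attention as signal in a library outside the comparisons. Of its 23846 entries, 589 were above 0, against at least 15338 in each of the other libraries. The label says that the submitters set it aside for low read counts.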

How the results depend on the processing

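The number of members called between the HET fractions was 9 as reported and 2 in a fit of those groups alone. With 1 library left out and more than 1 kept per group, it was 1 to 13 (23% to 29.2% of all genes). Between the KO fractions it was 0 as reported, 2 after median centring and 1 after quantile normalization. With a library left out in the same way, it was 0 to 1 there (10.4% to 17.3% of all genes). With the replicate number as a block, 2 members passed between the genotypes in CD62Llo and 8 between the HET fractions, of which 6 were shared with the 9, while Psmb8, Psmb10 and Psmd11 were lost. Over all genes the block called 6.6% and 31.8% in these comparisons. Between the HET fractions the fit of those groups alone called 21.3% of all genes. Between the KO fractions 17.4% of all genes were called after median centring and 15.3% after quantile normalization. The pairing of the HET fractions had correlations of 0.135 and 0.073, and that of the KO fractions 0.131, 0.068 and 0.178.

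The members' median log2 change turned from 0.09 to -0.0137 between the HET fractions after median centring. Between the KO fractions it turned from 0.04 to -0.0397 after median centring, and ranged from -0.0171 to 0.0826 with a library left out. Between the genotypes in CD62Lhi it turned from -0.02 to 0.000108 after median centring and to 0.00352 after quantile normalization, and ranged from -0.0285 to 0.00155 with a library left out. Of genes not called in HET, Psmb6 turned to -0.0897 and Psmf1 to -0.073 after median centring, and Psme2 to 0.00446 and Psmf1 to -0.0763 after quantile normalization. With a library left out, Psmb6 ranged from -0.0308 to 0.0642 and Psmf1 from -0.0221 to 0.0867. The cause of these turns was not tested.

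The 9 genes called between the HET fractions kept their call in 4 (Psmb8) to 16 (Psma3 and Psmg4) of 20 alternatives, with adjusted p (limma) from 0.00219 to 0.258. Psmb10 kept it in 14. The genotype comparison in CD62Lhi and the difference between the fraction changes called 0 members with any library left out. A rerun on the authors' table of 1 value per group could not be made, since it holds no replicates. FPKM carry no depth, so no limit set by depth is given.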
